A study of Mus musculus with 6 samples.

Results

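The genes described here are those of the G1 checkpoint of the cell cycle: the D-type cyclins Ccnd1, Ccnd2 and Ccnd3, their kinases Cdk4 and Cdk6, the INK4 inhibitors Cdkn2a, Cdkn2b and Cdkn2c, and the KIP inhibitors Cdkn1b and Cdkn1c. They were chosen by name, and all 10 symbols matched 1 Ensembl gene ID each among the 54109 listed. Messenger RNA was sequenced in 6 cultures of Msc80, a mouse Schwann cell line grown in medium with serum. The 3 control cultures carried an intact Sox10 gene (labelled Sox10 wt), and the 3 Sox10ko cultures came from a cell clone in which Sox10, a transcription factor of glia and neural crest, was inactivated by CRISPR/Cas9 editing. The labels call the cultures biological replicates and do not say whether the 3 Sox10ko cultures share 1 clone, so loss of Sox10 and a difference between clones cannot be told apart, and p-values measure the spread between these cultures.

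In growing cells, D cyclins bind CDK4 or CDK6, and the active kinases phosphorylate the retinoblastoma protein RB, which then releases the E2F factors that switch on genes of DNA replication. INK4 proteins bind the kinases and keep D cyclins off, whereas KIP proteins mainly inhibit the later cyclin E complexes and are held by cyclin D complexes. In mouse nerves cyclin D1 is known for its part in Schwann cell division after injury and CDK4 for its part in division after birth.

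The promoter sequences that follow belong to Cdk4, the gene of the more abundant kinase, and to Cdkn2a, which has separate starts for its 2 products, p19ARF (start 1) and p16INK4a (start 2). They are shown because the counts set both starts of Cdkn2a together as 1 gene and because the Cdk4 window is rich in the E-box letters bound by MYC-family and other basic helix-loop-helix factors. Each line gives the 250 bases before the start in GRCm38.p6 from RefSeq, 5′ to 3′ on the strand of the gene. Capitals mark CACGTG (E-box) for Cdk4 and TTTNNCGC (E2F-type letters) for Cdkn2a. N stands for any base, so the pattern is loose, and a match of letters does not show that a factor binds.
Cdk4, chr10:127063285-127063534, plus strand: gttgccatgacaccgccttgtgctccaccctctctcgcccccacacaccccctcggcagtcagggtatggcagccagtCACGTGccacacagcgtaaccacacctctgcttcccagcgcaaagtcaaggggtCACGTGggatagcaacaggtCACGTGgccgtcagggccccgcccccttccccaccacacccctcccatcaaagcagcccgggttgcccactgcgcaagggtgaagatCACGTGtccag
Cdkn2a start 1, chr4:89294620-89294869, minus strand: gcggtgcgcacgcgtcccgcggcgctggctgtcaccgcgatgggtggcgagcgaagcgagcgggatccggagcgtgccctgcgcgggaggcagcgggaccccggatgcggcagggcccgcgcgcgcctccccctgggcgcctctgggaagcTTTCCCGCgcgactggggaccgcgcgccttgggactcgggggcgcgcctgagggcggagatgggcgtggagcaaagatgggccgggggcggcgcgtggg
Cdkn2a start 2, chr4:89282193-89282442, minus strand: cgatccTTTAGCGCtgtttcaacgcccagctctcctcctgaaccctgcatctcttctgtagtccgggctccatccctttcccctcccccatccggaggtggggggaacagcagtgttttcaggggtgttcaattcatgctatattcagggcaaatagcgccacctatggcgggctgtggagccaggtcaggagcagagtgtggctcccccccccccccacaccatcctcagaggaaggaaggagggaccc

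Promoter windows of 300 bases (250 before and 50 after the start) were found for 7 of the 10 genes, with 10 starts in all, and not for Ccnd1, Ccnd2 and Cdkn1c. The Cdk4 window held CACGTG 4 times. Of 32851 promoters in the table, 7.15% held it at least once and 8 held it 4 times or more. CACGTG also occurred once in the windows of Cdk6 and of the second Cdkn2c start. TTTNNCGC was found in Cdk6 and at both Cdkn2a starts, against 5.17% of all promoters. The SOX-type letters ACAAAG occurred 2 times at the first start of Ccnd3, against 18.7% of all promoters with at least 1 match. ACAATG, the other SOX-type letters searched, was in none of the 10 windows and in 12.6% of all promoters. Both strands were searched; CACGTG reads the same on either strand and was counted once per place.

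The libraries held 32328618 to 41834431 counted reads, which makes a single read worth 0.0235 to 0.0300 CPM (the usual depth-scaled unit, here with TMM factors). Sox10 itself stood at 606 to 627 CPM in control and at 67.5 to 116 CPM in Sox10ko. Of 12 Schwann cell markers, 9 were lower and 0 higher in Sox10ko, and their summed level went from 5110 to 5640 CPM in control to 447 to 662 CPM. For comparison with these and the following marker counts, 14.7% of all tested genes were called lower and 17.3% higher. Among markers of other cells, 4 of 5 smooth muscle genes were higher (summed level 0.759 to 1.03 CPM in control, 118 to 670 CPM in Sox10ko), as were 2 of 4 tested of the 6 fibroblast genes (285 to 335 CPM and 657 to 1910 CPM). Acta2 made up most of the smooth muscle sum in Sox10ko (107, 644 and 321 CPM). Myh11, Cnn1 and Tagln stood there at 0.274 to 1.20 CPM, and Tagln was not called. Col1a1 led the fibroblast sum in Sox10ko (481, 1684 and 1092 CPM), where Pdgfra, Dcn and Lum reached at most 1.545 CPM. The 5 leukocyte markers summed to 1.93 to 3.10 CPM and 5.82 to 10.8 CPM, with 1 tested and higher, and Itgam and Cd3e at 0 in every library. The 4 endothelial markers summed to 2.13 to 2.30 and 0.389 to 0.728 CPM, with 1 of 2 tested lower. The 4 neuronal markers, with Rbfox3 at 0 and neither of 2 tested called, summed to 3.22 to 16 and 5.69 to 21.1 CPM. The 4 epithelial markers summed to 0.0542 to 0.256 and 1.17 to 2.49 CPM, with 1 tested and higher. The part of these shifts in the results below was not tested. In bulk RNA, fewer cells in a phase of the cycle and less RNA per cell cannot be told apart.

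Of the 10 genes, 7 had enough reads to be tested. Ccnd2 rose, Cdk4 and Cdkn2c fell, and Ccnd1, Ccnd3, Cdk6 and Cdkn1b did not pass (quasi-likelihood F test of edgeR, threshold of 0.05 on the Benjamini-Hochberg adjusted p over 15427 genes). Of all tested genes, 32.0% were called, 17.3% higher and 14.7% lower, so 3 of 7 lay near the background. The values of control and Sox10ko did not overlap in 5 of the 7, 3 of them higher in Sox10ko and 2 lower, against 49.3% of all tested genes, 25.5% higher and 23.8% lower. The median log2 fold change of the 7 was 0.19, and that of all tested genes 0.02. Cdkn2a, Cdkn2b and Cdkn1c had too few reads for a test. Without control replicate 3, the count of called genes over all genes went from 4939 to 2869.

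**Figure D1:**
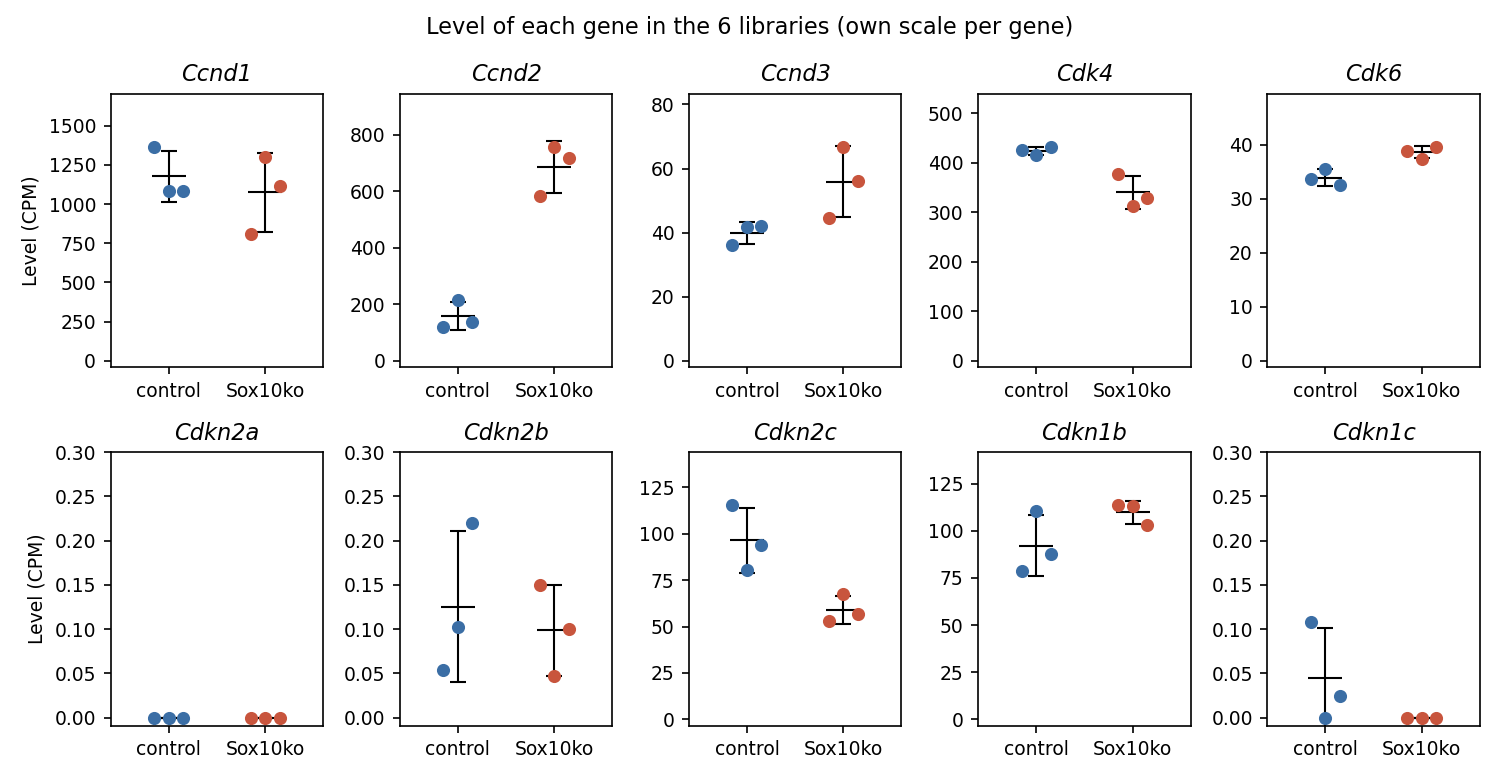
Level in CPM (y axis, linear, own scale per gene) of the 10 genes in the 3 control and 3 Sox10ko libraries, with points for libraries and bars for the mean and SD. Ccnd2 rose from 121 to 215 CPM in control to 582 to 758 CPM in Sox10ko, and Cdkn2a lay at 0 in all 6 libraries.

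Among the D cyclins, Ccnd2 was the gene with the large change. Ccnd2 (chromosome 6, 127125162 to 127152193, minus strand, GRCm38 as for all coordinates) encodes cyclin D2. Its control levels were 121, 215 and 137 CPM, and its Sox10ko levels 582, 758 and 719 CPM, each in the order of replicates 1, 2 and 3 as in all such lists. Every Sox10ko library stood above every control library. The rise was 4.36-fold (log2 fold change 2.12 ± 0.23 SE, 95% interval 1.58 to 2.67, n = 3 per group, edgeR adjusted p = 0.00077). Of all tested genes, 5.83% had a larger log2 fold change, and 5.97% were called and at least 4-fold higher. Ccnd2 was called under all 14 alternative settings, with log2 fold changes from 1.94 to 2.39.

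Ccnd1 (chromosome 7, 144929931 to 144939925, minus strand) encodes cyclin D1 and was the D cyclin with the most reads in each library. Its control levels were 1365, 1084 and 1086 CPM, and its Sox10ko levels 807, 1302 and 1118 CPM. The groups overlapped, and the Sox10ko libraries spread wider (SD 250 against 162 CPM). The log2 fold change was -0.13 ± 0.19 SE (edgeR adjusted p = 0.637), with a 95% interval from -0.58 to 0.31. A change of either sign within those bounds was not excluded. Without Sox10ko replicate 1, the lowest library, the log2 fold change was 0.03 (edgeR adjusted p = 0.89, range over the alternatives 0.256 to 0.925).

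Ccnd3 (chromosome 17, 47505051 to 47599691, plus strand) encodes cyclin D3. Its levels were 36.0, 41.8 and 42.1 CPM in control and 44.6, 66.7 and 56.2 CPM in Sox10ko. The groups did not overlap, but the distance between the highest control and the lowest Sox10ko library was small next to the spread within Sox10ko. The log2 fold change of 0.48 ± 0.16 SE just missed the threshold (edgeR adjusted p = 0.0538). It passed with library size alone for scaling, with a mean of at least 5 CPM as the filter, with the DESeq2 test or without Sox10ko replicate 1 (adjusted p = 0.0355, 0.0416, 0.0305 and 0.0152, range over the alternatives 0.0152 to 0.178).

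**Figure D2:**
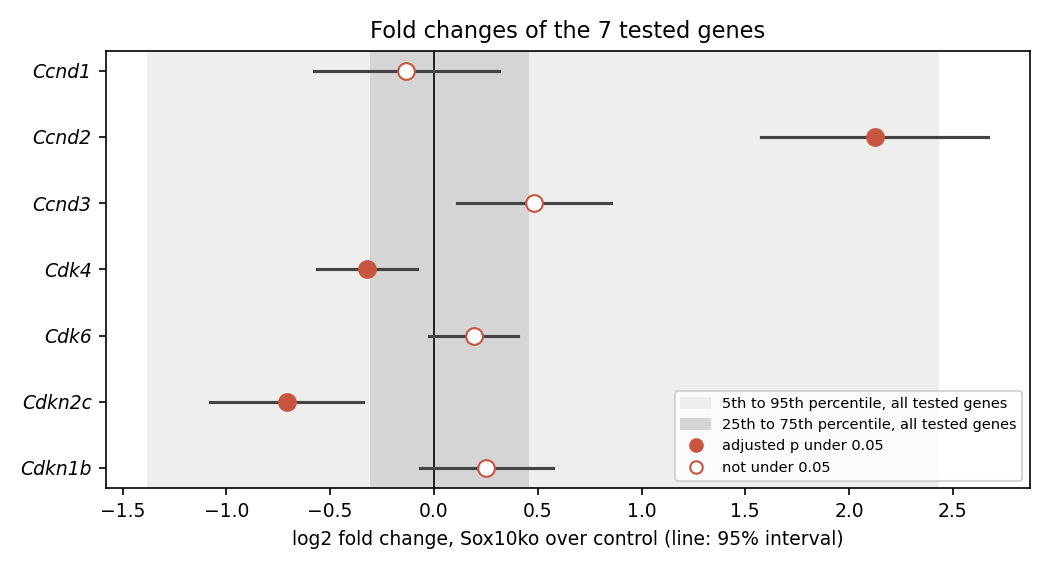
Log2 fold change of Sox10ko over control (x axis) for the 7 tested genes, with 95% intervals as lines, filled circles for an edgeR adjusted p under 0.05 and shading for the spread of all 15427 tested genes. Ccnd2 at 2.12 lies outside the middle 50% of genes (-0.30 to 0.45) with its whole interval, and Cdk4 at -0.32 lies near the lower edge of that range.

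The make-up of the D cyclin transcripts was compared per length, as CPM per kilobase of annotated exon. Ccnd1 made up 94.5%, 89.3% and 92.3% of the summed D cyclin level in the control replicates and 71.9%, 75.8% and 74.1% in the Sox10ko replicates. Ccnd2 made up 4.20%, 8.85% and 5.82% in control and 25.98%, 22.1% and 23.9% in Sox10ko. Ccnd3 stayed a minor species, at 1.70% ± 0.319 and 2.07% ± 0.0673 (SD, n = 3). Ccnd1 was the most abundant in every library, by a factor of 10.1 to 22.5 over Ccnd2 in control and of 2.77 to 3.43 in Sox10ko. The summed D cyclin level was 272 ± 30.9 CPM per kilobase in control and 308 ± 64.1 in Sox10ko (SD, n = 3), so the sums overlapped. The lengths of all annotated exons overstate those of the main transcripts: with the principal transcript of each gene, Ccnd1 made up 87.6% and 67.8%, Ccnd2 7.05% and 25.9%, and Ccnd3 5.34% and 6.27% (means of control and Sox10ko), and the order in each group was the same.

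**Figure D3:**
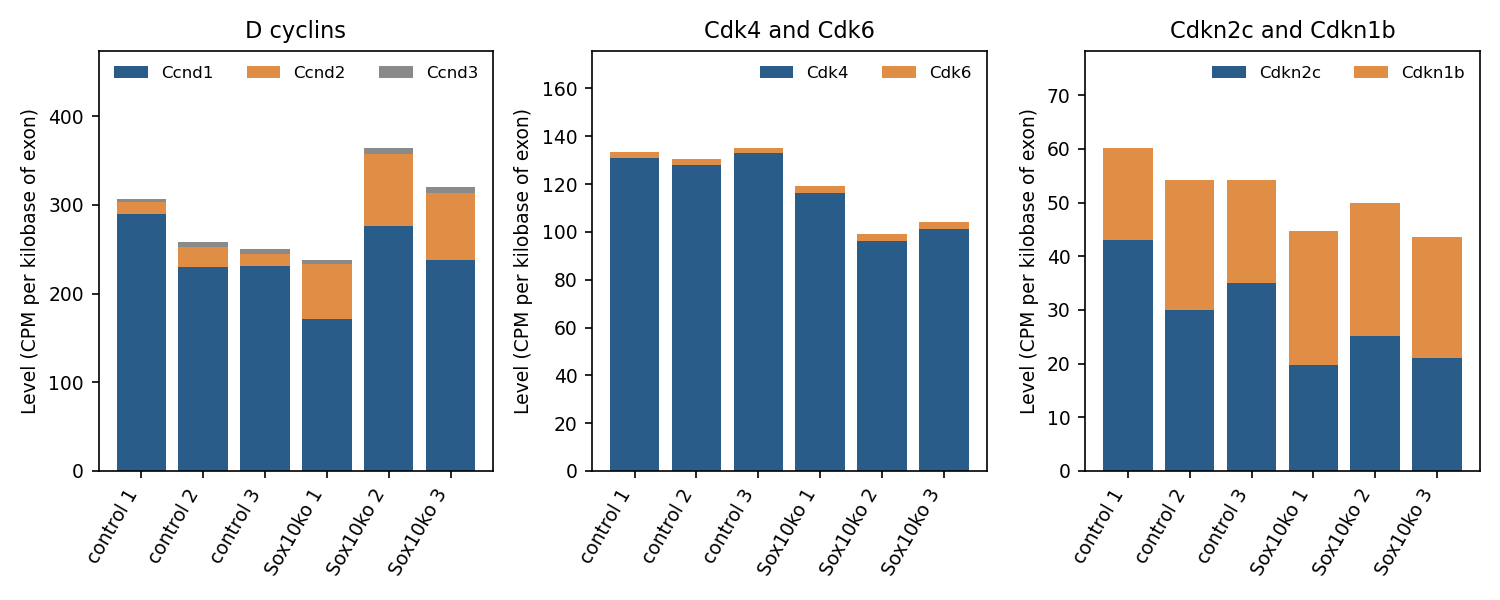
Level per length (y axis, CPM per kilobase of annotated exon) in each of the 6 libraries (x axis), stacked by gene for the D cyclins, for Cdk4 and Cdk6, and for Cdkn2c and Cdkn1b. The Ccnd2 layer is 12.9 to 22.8 in control and 61.9 to 80.5 in Sox10ko, and Cdk6 is a thin layer on Cdk4 in every library.

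Both kinase genes had small differences. Cdk4 (chromosome 10, 127063534 to 127067920, plus strand) had control levels of 426, 416 and 432 CPM and Sox10ko levels of 378, 313 and 329 CPM. All Sox10ko libraries lay below all control libraries, and the fall was 1.248-fold (log2 fold change -0.32 ± 0.10 SE, edgeR adjusted p = 0.0498). This call sat at the threshold: it was lost in 9 of 14 alternatives, among them the removal of any control library or of Sox10ko replicate 2 or 3, library size alone, no low-count filter and a mean of at least 5 CPM (edgeR adjusted p up to 0.133, range over the alternatives 0.0107 to 0.133). The direction was the same in all 14. Cdk4 shares 641 exonic bases with Tspan31 on the other strand, which had 3175 to 4357 reads per library and a log2 fold change of 0.26 (edgeR adjusted p = 0.103). The strand setting of the counting is not given, so reads in the shared bases are uncertain.

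Cdk6 (chromosome 5, 3341485 to 3531008, plus strand) had control levels of 33.6, 35.6 and 32.5 CPM and Sox10ko levels of 39.0, 37.5 and 39.6 CPM. The groups did not overlap, but the difference did not pass (log2 fold change 0.19 ± 0.09 SE, 95% interval -0.03 to 0.41, edgeR adjusted p = 0.156). It passed in 1 alternative, with each library's chromosome medians removed (0.34, edgeR adjusted p = 0.0453, range over the alternatives 0.0453 to 0.491). Per length, Cdk4 made up 98.2% ± 0.118 of the sum of the 2 kinase transcripts in control and 97.4% ± 0.218 in Sox10ko (SD, n = 3).

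The INK4 gene Cdkn2a gave no reads at all. It occupies chromosome 4, 89274471 to 89294653, minus strand, with 2 annotated transcripts and 1172 exonic bases, and was counted 0 times in each of the 6 libraries. A count of 0 allows 0.0704 to 0.0899 CPM per library (3 reads), or 0.0129 CPM over all 6, and covers counting error only. Because the table has 1 count per gene, this holds for p16INK4a and p19ARF together. Cdkn2b (chromosome 4, 89306299 to 89311039, minus strand), which encodes p15INK4b and lies 11645 bases away, had 2, 4 and 9 reads in control and 5, 2 and 4 in Sox10ko. Its pooled level in Sox10ko was 0.738 of that in control, with a 95% exact (Clopper-Pearson) counting interval of 0.307 to 1.72. At this depth a difference within these bounds was not excluded.

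Reads were not missing from the whole stretch of chromosome 4 around these genes. Mtap, the gene of an enzyme of methionine salvage that lies 93389 bases below Cdkn2a, had 11114 to 19210 reads in each library and did not pass (log2 fold change -0.27, edgeR adjusted p = 0.320). Without control replicate 2 it was called lower (log2 fold change -0.47, edgeR adjusted p = 0.0459, the lowest of its alternatives). On the far side, Dmrta1, at 384782 bases, had at most 3 reads in a library, and Ifne, beyond Mtap, had at most 4. Zfp352, the next coding gene beyond Dmrta1, had 1 to 15 reads. From Ifne to Dmrta1 the table lists 16 genes, and 6 of them had at most 15 reads over all 6 libraries. Counts of RNA do not show whether the Cdkn2a sequence is present in the DNA of these cells.

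**Figure D4:**
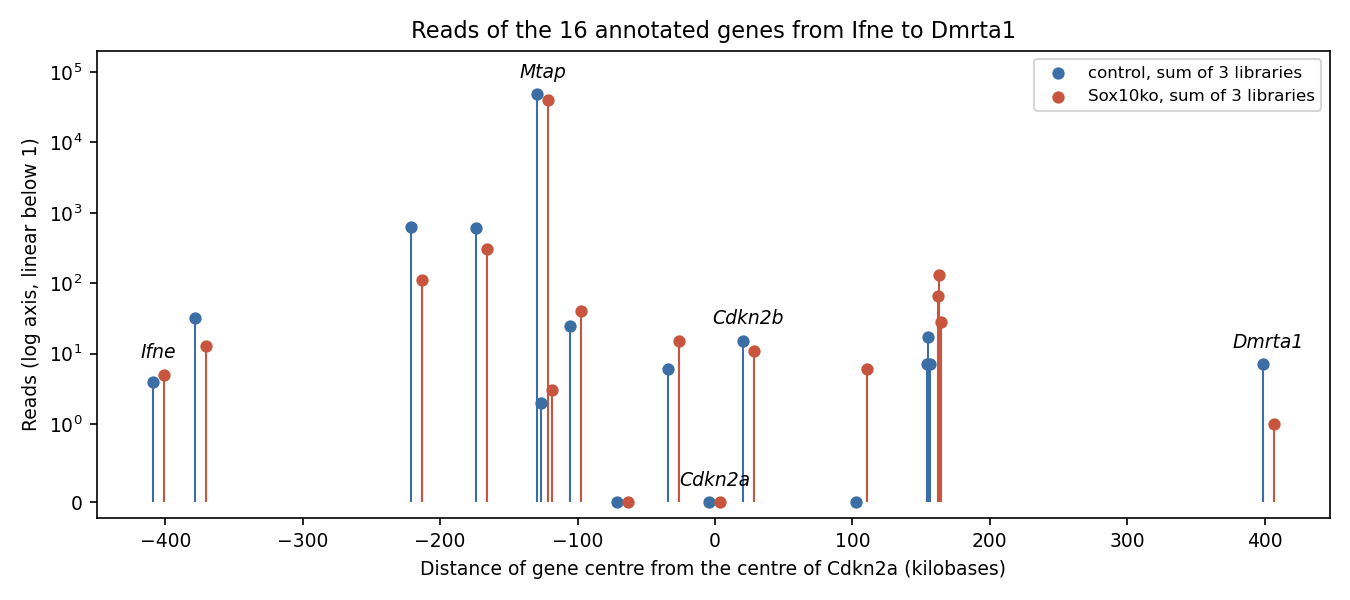
Reads summed over 3 libraries (y axis, logarithmic above 1) for the 16 annotated genes from Ifne to Dmrta1, by the distance of each gene's centre from that of Cdkn2a in kilobases; the control and Sox10ko points are drawn slightly apart. Mtap reaches 48126 reads in control and 39921 in Sox10ko, Cdkn2a has 0 in both, and Cdkn2b has 15 and 11.

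Cdkn2c, which encodes p18INK4c, was the INK4 gene of the 3 with enough reads for a test, and it fell. It occupies chromosome 4, 109660876 to 109667189, minus strand, with control levels of 115, 80.6 and 93.9 CPM and Sox10ko levels of 53.2, 67.5 and 56.6 CPM. No Sox10ko library reached the lowest control library. The fall was 1.63-fold (log2 fold change -0.71 ± 0.16 SE, 95% interval -1.08 to -0.34, edgeR adjusted p = 0.0132), and the call held in all 14 alternatives (adjusted p 0.000368 to 0.0474). Of the nearest coding genes with reads on either side, Faf1 had a log2 fold change of -0.15 and did not pass (edgeR adjusted p = 0.295), and Rnf11 had a log2 fold change of 0.29 (edgeR adjusted p = 0.0385), a call lost without any 1 of the 6 libraries and without a low-count filter (adjusted p up to 0.171).

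The KIP gene Cdkn1b (chromosome 6, 134920401 to 134925513, plus strand) encodes p27KIP1. Its control levels were 78.7, 110.3 and 87.7 CPM, and its Sox10ko levels 113.5, 113 and 103 CPM. The second control library lay among the Sox10ko libraries, and the difference passed neither here (log2 fold change 0.25 ± 0.14 SE, 95% interval -0.07 to 0.57, edgeR adjusted p = 0.200) nor in any of the 14 alternatives. Per length, Cdkn2c stood above Cdkn1b in each control library, with a ratio of Cdkn1b to Cdkn2c of 0.402, 0.807 and 0.551. In Sox10ko the ratio was 1.26, 0.989 and 1.07, so that the levels of the 2 inhibitors lay close together. With the principal transcripts the Sox10ko ratios were 1.16, 0.910 and 0.987.

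Cdkn1c, an imprinted gene that encodes p57KIP2 and is known in rat Schwann cells as an inhibitor of differentiation, had almost no reads. It occupies chromosome 7, 143458339 to 143461050, minus strand. It had 4, 0 and 1 reads in control and 0 in each Sox10ko library, too few to compare. Of its neighbours in the same imprinted region, Slc22a18 had 43 to 156 reads per library (log2 fold change -0.83, edgeR adjusted p = 0.129), Kcnq1 had at most 10 and Phlda2 at most 2. Trpm5, farther off, had 6 to 43 reads and rose (log2 fold change 1.73, edgeR adjusted p = 0.0228), a call lost without control replicate 2 or 3 or Sox10ko replicate 2 (edgeR adjusted p = 0.0851, 0.0964 and 0.0637).

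Taking up to 2 coding genes on each side of the 10 genes (none on the lower side of Cdk6) gave 34 different neighbours outside the 10. Of the 24 tested, 5 were higher and 2 lower, near the 17.3% and 14.7% of all tested genes. Some of the 10 overlap genes on the other strand. LTO1 shares 1100 exonic bases with Ccnd1 and had 1039 to 1292 reads per library against 26923 to 55461 for Ccnd1. Bysl shares 361 with Ccnd3 and had 2112 to 3623 reads against 1328 to 2843 for Ccnd3, whose level is uncertain if strand was not used. The antisense genes within Ccnd2 and Cdk6 had at most 48 reads in a library.

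The other genes of the pathway were described by list. Among CDK inhibitors outside the 10, Cdkn1a (p21CIP1, the p53-induced inhibitor of CDK2) rose from 145 ± 35.4 to 302 ± 11.5 CPM (SD, n = 3; log2 fold change 1.05 ± 0.17 SE, edgeR adjusted p = 0.00368). Cdkn2d, the INK4 gene of p19INK4d, stood at 52.1 ± 7.11 and 41.8 ± 7.82 CPM and did not pass (log2 fold change -0.32, edgeR adjusted p = 0.183). Cdkn3, a CDK phosphatase gene, did not pass either (log2 fold change -0.58, edgeR adjusted p = 0.135). Without Sox10ko replicate 2 all 3 of these genes were called, Cdkn1a higher and the other 2 lower.

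The cyclins and kinases that act after the D cyclins, listed with the CDC25 phosphatases, were lower where they changed. Of 10 tested, 6 fell and none passed in the other direction, against 14.7% and 17.3% of all tested genes called lower and higher. Their median log2 fold change was -0.54, against 0.02 for all tested genes. Cdc25a, the phosphatase that activates CDK2, fell from 69.2 ± 6.41 to 37.7 ± 1.49 CPM (log2 fold change -0.88 ± 0.10 SE, edgeR adjusted p = 0.00101). Cdk2 fell by 0.64 on the log2 scale and Ccne2, a cyclin E gene, by 0.58. Ccnb1, the mitotic cyclin, fell by 0.53, a call that did not survive the removal of control replicate 3 (edgeR adjusted p = 0.0509, range over the alternatives up to 0.0579). For each of these 4 genes all 3 Sox10ko libraries lay below all 3 control libraries, as for 23.8% of all tested genes. The 4 were named for the lowest adjusted p of the list, so their separation adds no support. Ccne1, Ccnb2 and Cdc25b of the same list overlapped between the groups. Genes of CDK activation and folding were not called in the edgeR fit (0 of 4, with 1 at an unadjusted p under 0.05 and 1 called by DESeq2). Cdc37, a co-chaperone of CDK4, was the nearest (log2 fold change 0.30, edgeR adjusted p = 0.0655), and it was called without Sox10ko replicate 2 and with library size alone, a mean of at least 5 CPM or chromosome medians removed. Cdk7, Ccnh and Mnat1, the subunits of the CDK-activating kinase, had log2 fold changes of -0.17, -0.005 and 0.18, and the sign for Ccnh turned with library size alone.

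Genes of the RB and E2F machinery were also mostly lower. Of 17 tested, 11 fell and 1 rose, against 14.7% and 17.3% of all tested genes (median log2 fold change -0.43). E2f2, an activator E2F, fell from 22.7 ± 1.11 to 12.1 ± 1.09 CPM (SD, n = 3; log2 fold change -0.91 ± 0.13 SE, edgeR adjusted p = 0.00199). Rbl1 (p107), Lin9 and E2f5 fell by 0.67, 0.65 and 0.62 on the log2 scale. Rbl2 (p130), the RB relative of resting cells, rose from 24.7 ± 4.10 to 37.5 ± 4.46 CPM (log2 fold change 0.60 ± 0.15 SE, edgeR adjusted p = 0.0229), a call lost without control replicate 1 or 3 or Sox10ko replicate 1 (edgeR adjusted p = 0.0828, 0.0954 and 0.0587). Rb1, named after its values were seen, had a log2 fold change of -0.04 (edgeR adjusted p = 0.815), and its sign turned with library size alone. Without control replicate 3 the list had 7 calls in place of 12.

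Of 24 E2F targets of S phase, 14 fell and the remaining 10 did not pass, against 14.7% of all tested genes called lower. All 24 had a log2 fold change below 0 (median -0.49, against 0.02 for all tested genes). Mybl2 fell by 0.93 on the log2 scale, the helicase subunit gene Mcm7 by 0.84, and the primase and polymerase genes Pola1 and Prim1 by 0.76 and 0.72. The count was 9 without control replicate 1 and 7 without control replicate 3. Sox10ko replicate 3 lay nearest to control for Mcm4 and Uhrf1, both named after their values were seen. Mcm4 stood at 149, 183 and 302 CPM against 279 to 298 CPM in control, and Uhrf1 at 176, 189 and 316 CPM against 328 to 387 CPM. Neither passed (edgeR adjusted p = 0.209 and 0.0601), and both were called lower without Sox10ko replicate 3 (edgeR adjusted p = 0.00579 and 0.00255).

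**Figure D5:**
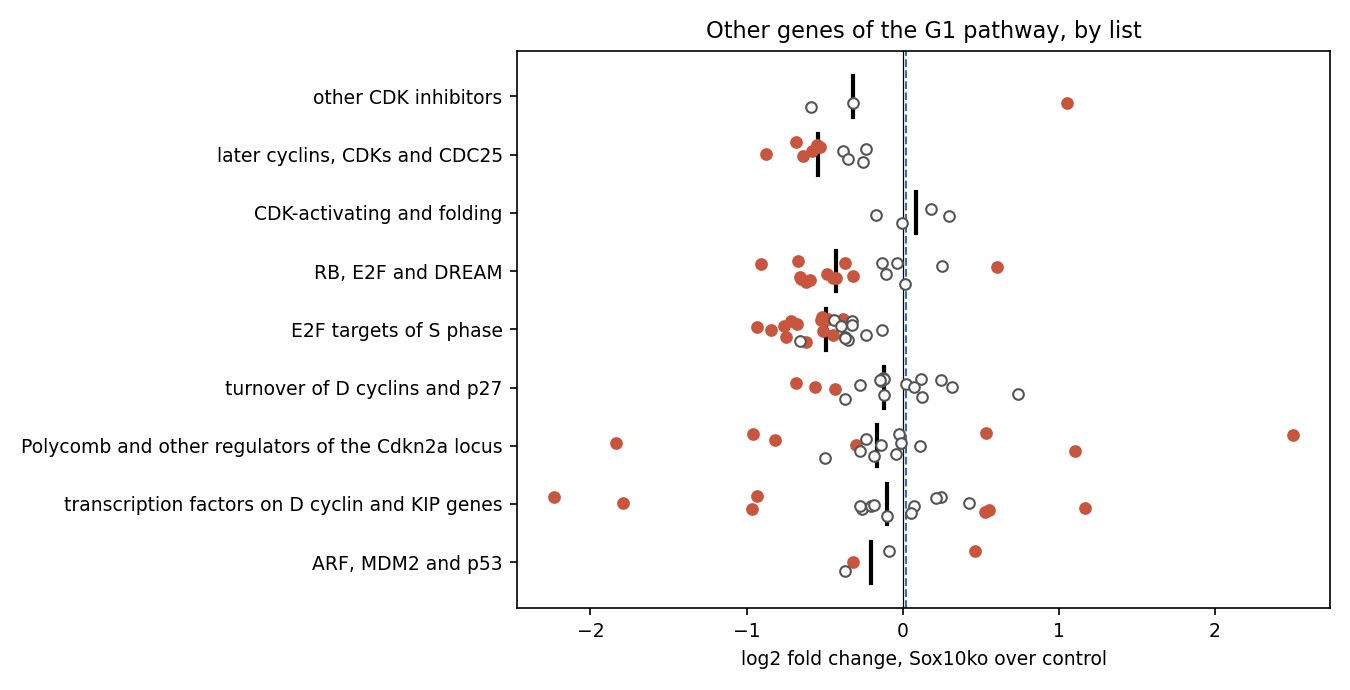
Log2 fold change of Sox10ko over control (x axis) for the tested genes of 9 lists (y axis), with filled points for an edgeR adjusted p under 0.05, open points for the rest, a black bar for each list's median and a dashed line for the median of all tested genes (0.02). All 24 E2F targets lie below 0, and the regulator lists reach from -2.23 (Fos) to 2.50 (Ets2).

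Of 17 tested genes listed under the turnover of D cyclins and p27, 3 fell, near the 14.7% of all tested genes called lower (median log2 fold change -0.12). In the other direction 0 were called, against 17.3% of all tested genes. Skp2, the F-box protein that marks p27 for degradation, fell by 0.56 on the log2 scale, and its cofactor Cks1b fell by 0.44. Dtl, a receptor of the CUL4 ligase and itself an E2F target, fell by 0.68. Ambra1, which marks D cyclins for degradation, had a log2 fold change of 0.32 and did not pass (edgeR adjusted p = 0.0836). The calls of Skp2 and Cks1b were lost without control replicate 1 or 3, and that of Cks1b also without Sox10ko replicate 1 or 2 (edgeR adjusted p up to 0.0655). The list then had 1 call without control replicate 1 and 1 without control replicate 3.

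Of 16 tested genes known to regulate Cdkn2a, 3 rose and 4 fell, against 17.3% and 14.7% of all tested genes (median log2 fold change -0.16). Ets1 fell from 294 ± 16.3 to 82.5 ± 6.97 CPM and Ets2 rose from 29.1 ± 2.99 to 165 ± 47.6 CPM (log2 fold change 2.50 ± 0.21 SE, edgeR adjusted p = 0.000316). Both encode factors known in human cells to activate p16INK4a. The Polycomb genes Ezh2 and Cbx2 fell by 0.96 and 0.82 on the log2 scale, and Ring1, another Polycomb gene, rose by 0.53. Cbx7, a further Polycomb gene named after its values were seen, rose by 1.10 (edgeR adjusted p = 0.0403), from 3.54 to 4.00 CPM in control to 10.6, 4.32 and 9.37 CPM in Sox10ko. Its call was lost with limma-voom and without any 1 of the libraries other than Sox10ko replicate 2 (adjusted p 0.0809 to 0.135). Ring1 was no longer called without any 1 of the libraries other than Sox10ko replicate 1 (edgeR adjusted p 0.0536 to 0.101), and the list had 4 calls without any 1 of the control libraries or Sox10ko replicate 3.

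Of 17 tested transcription factors that act on D cyclin and KIP genes, 3 rose and 4 fell, against the same background shares (median log2 fold change -0.10). Jun, a known activator of Ccnd1, fell from 332 ± 20.7 to 95.8 ± 2.30 CPM (SD, n = 3; log2 fold change -1.79 ± 0.09 SE, edgeR adjusted p = 5.44e-05). Ccnd1 was not called in the same libraries, with a 95% interval of its log2 fold change from -0.578 to 0.315. A link between Jun and Ccnd1 was not tested. Fos fell by 2.23, a call lost without control replicate 2 or 3 or Sox10ko replicate 1 or 3 and with limma-voom (adjusted p up to 0.0627). Its levels were low, at 1.63, 7.71 and 4.91 CPM in control and 0.779, 1.29 and 0.947 CPM in Sox10ko. Junb and Fosl1 of the same list, named after their values were seen, had log2 fold changes of 1.17 and -0.97 (edgeR adjusted p = 0.0315 and 0.0472). Tcf7l2 and Ctnnb1, the factors of canonical Wnt signalling, rose by 0.55 and 0.53, and removing control replicate 1 ended the call of Ctnnb1 (0.0532 by edgeR, adjusted p, with lower values in its other alternatives). The list had 3 to 5 calls with 1 library left out, 3 of them without control replicate 3 and 4 without control replicate 1 or 2 or Sox10ko replicate 3. A filter at a mean of 5 CPM also left 4.

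Downstream of p19ARF, Mdm2, the ligase that degrades p53, rose from 149 ± 8.73 to 205 ± 22.9 CPM (log2 fold change 0.46 ± 0.11 SE, edgeR adjusted p = 0.0188), and Trp53 fell from 115 ± 4.65 to 92.4 ± 7.07 CPM (log2 fold change -0.32 ± 0.09 SE, edgeR adjusted p = 0.0382). Mdm4 and Npm1 did not pass (edgeR adjusted p = 0.0520 and 0.568). The Mdm2 call was lost without control replicate 1 or 3 or Sox10ko replicate 2, and the Trp53 call without any 1 of the control libraries or Sox10ko replicate 2 or 3, with library size alone or with the filter at a mean of 5 CPM. The list had no call without control replicate 1 or 3 and 1 without Sox10ko replicate 2 or 3. Mdm4 passed, as lower, in 6 of its alternatives, among them the removal of control replicate 2 or Sox10ko replicate 2.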

How the data were processed

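The authors deposited whole-number read counts per Ensembl gene ID, 1 table per library. Per the labels' protocols, libraries came from a stranded mRNA kit. The build mm10 (GRCm38) and the tools HTSeq, STAR 2.6.0c and DESeq2 are named, per the submitters' processing notes. What each tool did, with which annotation, strand setting and filters, is not given in the sources used here. Symbols, coordinates and exon lengths came from GENCODE on GRCm38, and promoters from RefSeq.

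Genes were filtered with filterByExpr, scaled with TMM and tested with the quasi-likelihood F test of edgeR 4.0.16 (R 4.3.3), all 6 libraries, no covariate, two-sided, Benjamini-Hochberg adjusted over 15427 genes at 0.05. SE is the log2 fold change over the root of F. Alternatives used DESeq2 1.42.0, limma 3.58.1 (voom), other scalings and filters, a replicate block and each library left out. Principal transcript lengths were added after seeing the data. No replicates agreed within sampling noise (chi-square per degree of freedom 24.7 to 80.9). On simulated data the edgeR step was tested first.

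The genes and lists were chosen with earlier results of these data known. Named were all 10 genes and, per list, the 4 lowest adjusted p and up to 2 called against the list's direction. The reads carry no molecular identifiers and so are not independent molecules. Counting intervals and floors cover counting error alone.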

Additional observations from a re-analysis of the deposited data

How the results depend on the processing

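Of the 7 tested genes, Ccnd2 and Cdkn2c were called in all 14 alternatives, Cdk4 in 5, Ccnd3 in 4, Cdk6 in 1 and Ccnd1 and Cdkn1b in none; the count called was 2 to 4, and with library size alone or a mean of at least 5 CPM it was 2 higher and 1 lower. The direction turned only for Ccnd1 without Sox10ko replicate 1 (0.032, against -0.302 to 0.032 over the libraries left out) among these 7. Among named list genes it turned for Ccnh, which lay at 0.053 with library size alone, 0.042 with a mean of at least 5 CPM, 0.00 with limma-voom, 0.002 with the replicate block, 0.12 with chromosome medians removed and -0.125 to 0.042 with 1 library left out, and for Rb1, at 0.02 with library size alone, 0.007 with a mean of at least 5 CPM, 0.226 with chromosome medians removed and -0.121 to 0.028 with 1 library left out. With 1 library left out, the calls ranged from 2869 to 4681 genes in all, 1 to 3 for other inhibitors, 0 to 1 for CDK activation, 7 to 12 for RB and E2F, 7 to 18 for E2F targets, 1 to 4 for turnover, 4 to 5 for regulators of the Cdkn2a locus, 3 to 5 for factors on D cyclin and KIP genes, and 0 to 2 for MDM2 and p53. CDK activation had 1 call with library size alone, a mean of at least 5 CPM, DESeq2 or chromosome medians removed. MDM2 and p53 had 1 call with library size alone or a mean of at least 5 CPM, and the D cyclin and KIP factors had 4 with that mean. With principal transcript lengths the share of Ccnd1 was 87.6% and 67.8%, that of Ccnd2 in Sox10ko 25.9%, and that of Ccnd3 5.34% and 6.27%.

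The deviations of same-numbered libraries from their group means had correlations of -0.214, -0.0997 and 0.0739 over 10236 genes. Only for number 3 did both libraries correlate best with their own number. Deviations within a group of 3 offset one another, so this check cannot settle whether the numbers pair the samples. With the replicate block 3537 genes were called, 8 of RB and E2F, all lower, and 3 of the later cyclins, kinases and CDC25 phosphatases. Also called were 4 regulators of the Cdkn2a locus, 4 factors on D cyclin and KIP genes and 1 of MDM2 and p53. Of the 10 genes, Ccnd2 and Cdkn2c were called and Cdk4 was not (-0.33, edgeR adjusted p = 0.106, range 0.0107 to 0.133). The block also ended the calls of Ccnb1, Rbl2 (0.61, edgeR adjusted p = 0.0682), Cks1b, Ring1, Cbx7, Trp53, Trpm5 and Rnf11. The causes were not tested. At this depth Cdkn2a, Cdkn2b and Cdkn1c could not be compared.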
